A study of Homo sapiens with 6 samples.

Results

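Polyamines are small, positively charged molecules that growing cells need for nucleic acid binding and for translation. Putrescine is made from ornithine by ODC1, and SRM and then SMS extend it to spermidine and spermine with aminopropyl groups that AMD1 supplies from S-adenosylmethionine. Several of these enzymes are known for translational control through upstream open reading frames (uORFs), short reading frames in the 5′UTR that ribosomes meet before the coding sequence (CDS). The genes described here are ODC1, AMD1, SRM and SMS for synthesis, AZIN1, which binds the antizymes that mark ODC1 for degradation, and SAT1, SMOX and PAOX, which acetylate or oxidise polyamines. They were chosen by symbol, and all 8 were looked up in both deposited tables. The translational efficiency table held 6 of them among 8121 genes and the ribosome occupancy table held 7 among 9570 transcripts. SMOX was listed only with its occupancy, and PAOX, an oxidase of acetylated polyamines, was not found by its symbol and was not analysed here.

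The data were ribosome profiling libraries of HEK293, a line of human embryonic kidney cells, grown in serum-containing medium and carrying a control siRNA according to the sample labels. There were 3 libraries of ribosome-protected fragments (RPFs) and 3 libraries of total RNA, each pair taken from the same lysate. Cycloheximide, which holds ribosomes on the mRNA, was given to the living cells before lysis and was also in the wash and the lysis buffer. All samples share the same growth condition and treatment, so the comparisons are between genes and between regions of an mRNA. The part of cycloheximide in the reads at start codons and in the 5′UTR was not tested. The labels do not say whether the replicates were separate cultures, and p-values therefore measure only the spread between these samples.

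Translational efficiency is the deposited ratio of RPFs to total RNA for each gene in each replicate. Ribosome occupancy is the number of RPFs at a codon, normalised by the authors for library size and divided by the TPM of the transcript, a measure of mRNA abundance that accounts for transcript length and sequencing depth, with the 3 replicates added up. Per the column names only RPFs in the reading frame of the CDS were counted, in the 5′UTR and 3′UTR too. Every value of the 7 transcripts was an exact sum of whole reads from 3 libraries, so the reads of each library could be read back. These libraries are called a, b and c in order of increasing worth of a read, and they could not be tied to the replicate numbers, so that the same letter need not be the same library in different genes. Read counts over the 3 libraries were 21206 for ODC1, 18254 for AMD1, 9131 for SMS, 7337 for SRM, 6325 for AZIN1, 488 for SAT1 and 71 for SMOX. Statements on SAT1, and above all on SMOX, rest on few reads.

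The upstream reading frames were read from GENCODE 44 transcripts on GRCh37, the same build as hg19, matched by symbol, CDS length and nearest 5′UTR length. An AUG upstream of the CDS was present in 43.9% of the 8742 matched transcripts. Among the polyamine genes the matched transcripts of AMD1, ODC1 and SMS had 1 upstream AUG, that of SAT1 had 2 and that of AZIN1 had 4. SRM and SMOX had none in the matched transcripts, so upstream AUG control cannot be examined for them there. The listed 5′UTR was longer than the matched one, slightly in SRM (27 codons against 75 nt) and far in SMOX (71 codons against 69 nt). Whether the unmatched part of these 5′UTRs holds an AUG was not examined. The following sequences show the upstream reading frames and start codons on which 5′UTR reads were examined, 5′ to 3′ on the mRNA strand, with the uORF, the stop codon or the start codon named below in capitals. The AMD1 uORF lies in the first exon at chr6:111195996-111196022 (plus strand), and the capitals mark its 6 codons and its stop codon. The SAT1 uORF 1 lies at chrX:23801349-23801369 (plus strand) and has 4 codons and a stop codon, in frame with the CDS. The start of SAT1 uORF 2 lies at chrX:23801383-23801409 (plus strand) and the capitals mark its AUG. The SMS upstream AUG lies at chrX:21958911-21958937 (plus strand), 23 nt before the CDS. The ODC1 sequence lies on the minus strand of chromosome 2 between 10585150 and 10585281 and crosses an exon junction, and its capitals mark an in-frame stop codon and the start codon of the CDS. The AMD1 start sequence at chr6:111196297-111196326 has the codon before the start codon and the start codon in capitals.
AMD1 uORF: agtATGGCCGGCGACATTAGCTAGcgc
AMD1 start: agtctcacgGTGATGgaagctgcacatttt
SAT1 uORF 1: gtcATGGTGCCAGCCTGActg
SAT1 uORF 2 start: cccgggagacgaATGaggaaccacctc
SMS upstream AUG: cccccaggcATGgcacagggcctcgcc
ODC1 start: TAGgaacatcaagaaatcATGaacaac

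Translational efficiency differed up to 4.85-fold between the polyamine genes and was highest for the enzymes of the last steps of synthesis. SMS (spermine synthase) had ratios of 1.01, 0.962 and 1.04 in replicates 1 to 3, and SRM (spermidine synthase) had 0.681, 0.712 and 0.639. The enzymes that supply putrescine and aminopropyl groups were lower, with 0.528, 0.524 and 0.534 for ODC1 and 0.447, 0.487 and 0.426 for AMD1. AZIN1, the antizyme inhibitor, had 0.354, 0.339 and 0.314. SAT1, the acetyltransferase that starts polyamine breakdown, was lowest with 0.226, 0.196 and 0.199. None of the 15 pairs of genes overlapped in their replicates, where 90.2% of all pairs of genes in the table did not overlap, so the count is near the background. The closest neighbours were ODC1 and AMD1, with ODC1 higher at 1.17-fold, with 1.08-fold and 1.25-fold as the lowest and highest replicate.

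**Figure D1:**
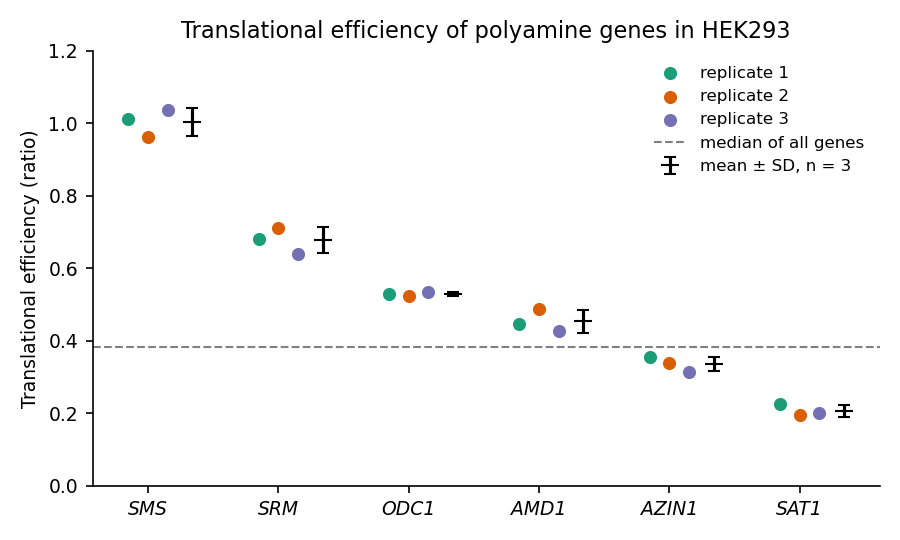
Translational efficiency (deposited ratio of RPFs to total RNA, vertical axis) of the 6 polyamine genes with a value, with a point for each replicate and a bar for mean ± SD (n = 3), and the median of all genes as a dashed line. SMS lies between 0.962 and 1.04 and SAT1 between 0.196 and 0.226, and no genes overlap.

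Against the median ratio of all genes, 0.383, 4 of the polyamine genes were higher and 2 were lower by limma (FDR 0.05), where the background was 44.7% of genes called higher and 44.6% called lower. The call therefore says little beyond the direction. SMS was higher by 1.36 on the scale of log2(ratio + 0.01) (SE 0.05, limma adjusted p = 8.37e-06) and stood at the 79.9 percentile of genes. SRM was higher by 0.80 (SE 0.06, limma adjusted p = 7.36e-05) and ODC1 by 0.45 (SE 0.05, limma adjusted p = 0.000399). AMD1 was higher by 0.23 (SE 0.06, limma adjusted p = 0.0134), a call that was lost without replicate 2 (adjusted p = 0.0710). AZIN1 differed by -0.19 (SE 0.06, limma adjusted p = 0.0260), and this call was lost without replicate 2 (adjusted p = 0.0720) and without replicate 3 (adjusted p = 0.156). SAT1 differed by -0.86 (SE 0.06, limma adjusted p = 8.79e-05) and stood at the 26.6 percentile. When a difference over 2-fold was required (limma treat), SMS was the only polyamine gene called (adjusted p = 0.00162), with 23.3% of all genes called higher and 18.2% called lower. Of the runs of 30 nt in the CDS of SMS, 70.7% also occurred in transcripts of other genes on the same strand, and of those of AMD1 27.2%, while ODC1 had 0.442% and SRM, AZIN1 and SAT1 had none. The sources used here do not give how reads of shared sequence were counted, and the part of such reads in the ratios was not tested.

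The genes with the nearest translational efficiency in all 3 replicates, by Euclidean distance on the log2 scale, were CRCP (0.03), LCMT2 (0.04) and GINS3 (0.04) for AMD1. For ODC1 they were CDV3 (0.02), GBAS (0.04) and PAIP1 (0.04). For AZIN1 they were CTD-2192J16.17 (0.03), SPRED1 (0.03) and SCAF1 (0.04).

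The occupancy table divides by TPM, so the worth of a read also gives the abundance of each mRNA relative to another, on a scale per transcript length. The geometric mean over the 3 libraries was used, which does not depend on which library is which, and it carries no error because libraries could not be matched between genes. Relative to ODC1, AMD1 mRNA was at 0.777, SMS at 0.413, SRM at 0.320, AZIN1 at 0.248, SAT1 at 0.0758 and SMOX at 0.00831. The synthesis enzymes and AZIN1 were thus abundant mRNAs, from the 87.5 percentile of transcripts for AZIN1 to the 98.1 percentile for ODC1. SAT1 stood at the 59.6 percentile and SMOX at the 9.94 percentile.

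Mean occupancy of the CDS per codon gave a different order from translational efficiency, with SRM first and ODC1 below AZIN1. The values per library are 3 times the contribution of each library, so that their mean is the listed value. SRM had 0.0482, 0.0469 and 0.0433 in libraries a, b and c, AMD1 had 0.0402, 0.0426 and 0.0379, and SMS had 0.0392, 0.0364 and 0.0352. AZIN1 had 0.0318, 0.0346 and 0.0323, ODC1 had 0.0279, 0.0275 and 0.0274, SMOX had 0.0234, 0.0309 and 0.0275, and SAT1 had 0.0185, 0.0200 and 0.0204. Of 21 pairs, 19 did not overlap, near the 88.9% of all pairs of transcripts, and the pairs that did were AMD1 with SMS and ODC1 with SMOX. SAT1 was lowest in both measures. The percentiles of CDS occupancy ran from 17.8 for SAT1 to 51.4 for SRM. SMS, the gene with the highest translational efficiency, stood at the 40.5 percentile of CDS occupancy, and the occupancy values belong to 1 transcript per gene and to in-frame reads of 28 to 30 nt. The cause of the different order was not tested.

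In the 5′UTR, ribosome occupancy separated the polyamine genes other than SMOX into those with many upstream reads and those with almost none. The number of 5′UTR reads in libraries a, b and c was 474, 355 and 267 for AMD1, 165, 112 and 104 for AZIN1, 163, 107 and 83 for ODC1 and 28, 26 and 18 for SAT1. SMS had 4, 3 and 1, and SRM had a single read in library a. SMOX had a single read in library c, but only 71 reads in all, too few to place it. Per codon and relative to the CDS, SAT1 was highest, with ratios of 0.434, 0.568 and 0.483 (0.495 ± 0.068, SD, n = 3). AMD1 followed with 0.217, 0.182 and 0.226 (0.208 ± 0.023), then AZIN1 with 0.146, 0.121 and 0.158 (0.142 ± 0.019) and ODC1 with 0.0880, 0.0725 and 0.0826 (0.0810 ± 0.0079). The values of these 4 genes did not overlap with each other, while those of SMOX, SMS and SRM overlapped and gave no order among the 3. Those of SMOX also overlapped with ODC1 and AZIN1. Of all 21 pairs 16 did not overlap, beside a background of 61.1% of all pairs of transcripts. An exact test of 3 libraries against 3 cannot go below p = 0.1, and none was made. Among the 9566 transcripts with a value, the median ratio was 0.0286, and SAT1 stood at the 93.6 percentile, AMD1 at 84.2, AZIN1 at 78.2 and ODC1 at 67.9. SMS stood at the 28.5 percentile and SRM at 24.6, and SMOX, through its single read, at 61.6.

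**Figure D2:**
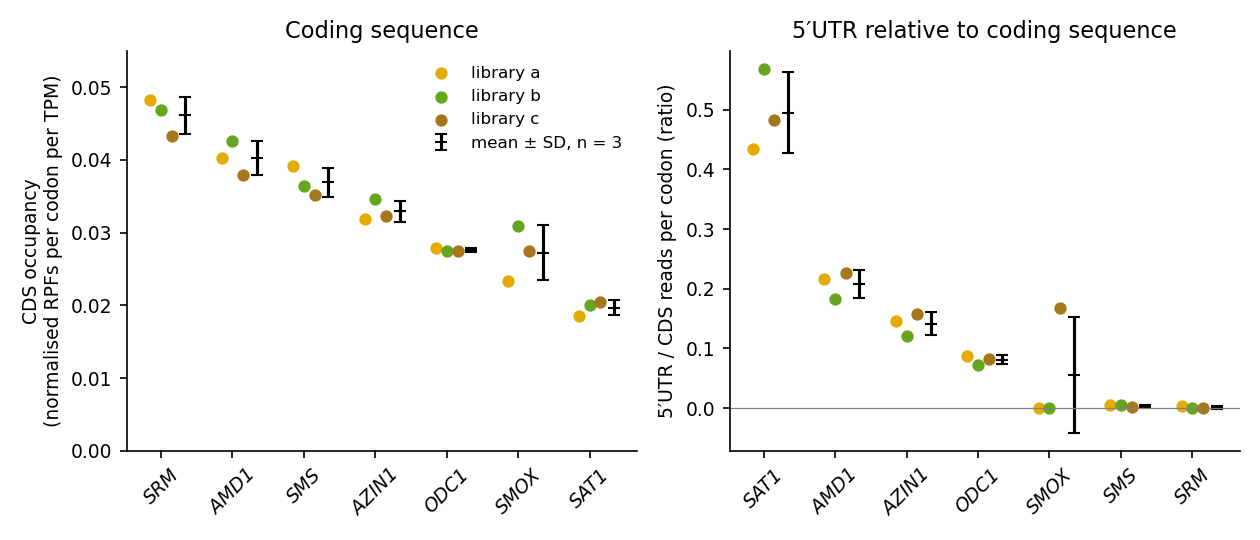
Mean CDS occupancy per codon (left, normalised RPFs per TPM) and the ratio of reads per codon in the 5′UTR to those in the CDS (right) of the 7 polyamine mRNAs, with a point for each library and a bar for mean ± SD (n = 3). SAT1 is lowest on the left at 0.0196 and highest on the right at 0.495, and the raised point of SMOX is a single read.

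AMD1 (chr6:111195973-111220082, plus strand) had a high density of reads at its uORF, which begins 310 nt before the CDS after a leader of 11 nt in the matched transcript. The in-frame list begins at this AUG, at codon -104, counting back from the start codon of the CDS. The 7 codons that cover the uORF and its stop codon held 212, 126 and 76 reads in libraries a, b and c, together 37.8% of the 1096 reads of the 5′UTR. Their occupancy per codon was 1.44, 0.960 and 0.957 times the mean of the CDS. The uORF is not in the reading frame of the CDS, and RPFs in its own frame are not in these counts. Most of the reads lay on codon -103, with 113, 64 and 30, and on codon -102, with 91, 52 and 42, and codon -103 begins on the second base of the upstream AUG. Next to this peak, codons -97 to -15 were at 0.0389, 0.0463 and 0.0648 times the CDS mean. Closer to the CDS, after an in-frame stop codon at -15, each of the 14 codons from -14 to -1 held reads, together 194, 157 and 130. Of these, codon -1, the GTG printed above before the start codon, held 123, 107 and 74 reads. Only 14 of 292 runs of 30 nt in the AMD1 5′UTR occurred in another gene, and none of them overlaps the uORF. Without 5 codons on each side of the start codon the 5′UTR to CDS ratio of AMD1 was 0.184 in place of 0.207, and over the last 17 codons of the 5′UTR it was 0.573.

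**Figure D3:**
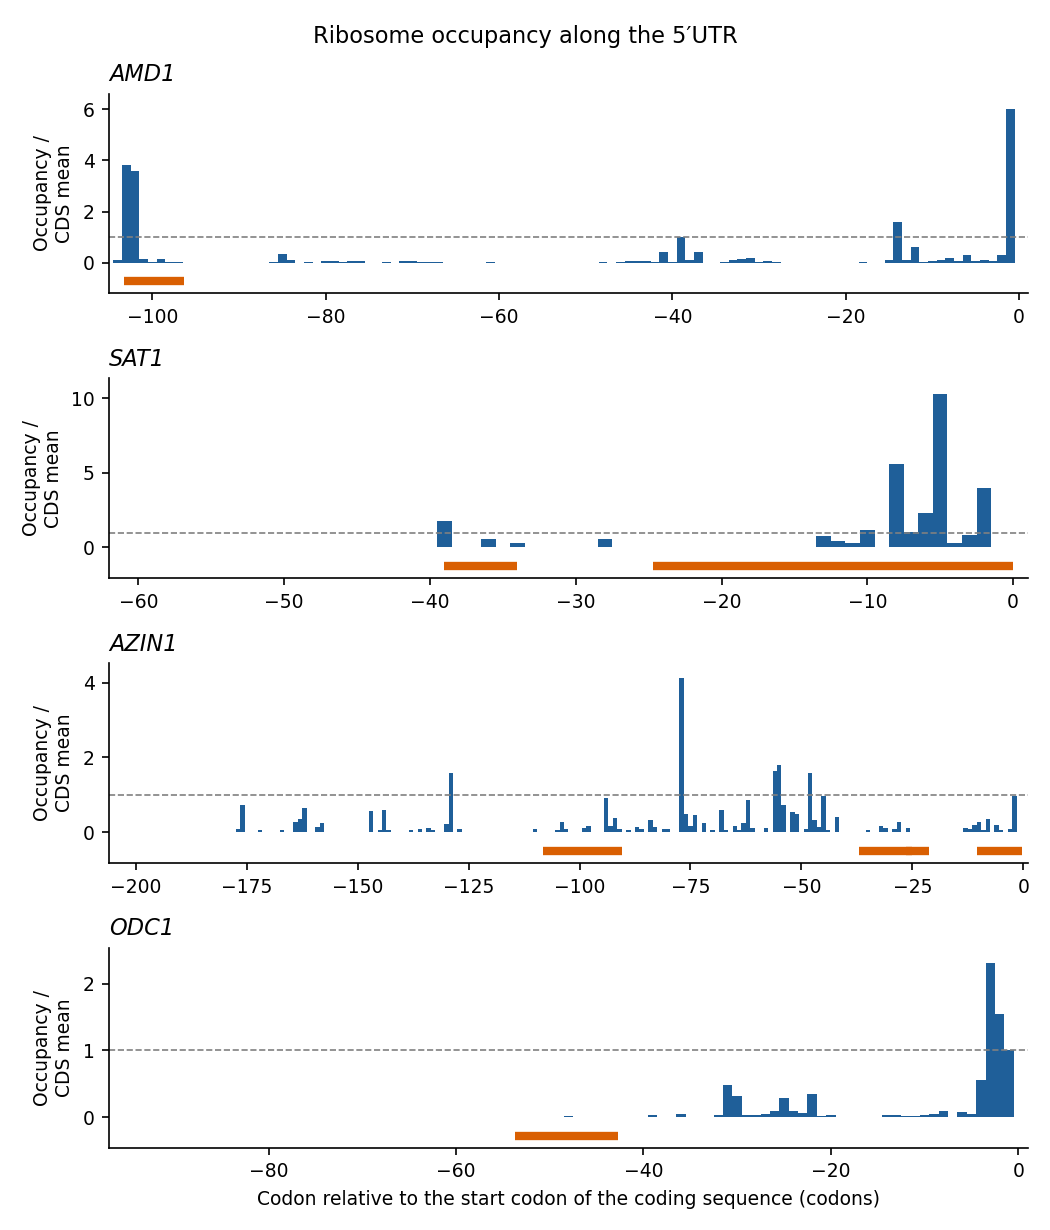
Ribosome occupancy of each 5′UTR codon divided by the CDS mean of the same mRNA (vertical axis) against the codon position before the start codon (horizontal axis) in AMD1, SAT1, AZIN1 and ODC1, with the 3 libraries combined. Orange lines are upstream AUG reading frames of the matched GENCODE transcript and the dashed line is the CDS mean. AMD1 peaks at codon -103 and at codon -1, SAT1 at codon -5, AZIN1 at codon -77 and ODC1 at codon -3.

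SAT1 (chrX:23801290-23804327, plus strand) had most of its 5′UTR reads in the stretch covered by its uORF 2. This reading frame starts 74 nt before the CDS, has 29 codons and runs past the start codon in another frame. Codons -25 to -1 held 26, 24 and 15 reads, which is 65 of all 72 reads in the 5′UTR. Their density was 0.983, 1.28 and 0.983 times that of the CDS. Codon -5 alone held 11, 8 and 6 reads, 10.3 times the CDS mean in the combined values. The in-frame uORF 1 held 1, 2 and 2 reads over its 4 codons, and the 22 listed codons before it held none of the 72 reads, which allows a share of up to 3 reads. The 5′UTR to CDS ratio of the combined values of SAT1 was 0.267 in place of 0.497 when 5 codons on each side of the start codon were left out, and it was 1.59 over the last 17 codons of the 5′UTR. Of the SAT1 5′UTR, the last 74 nt, which are those of uORF 2, also occur in a transcript of ENSG00000288706, so these reads cannot be assigned to SAT1 alone.

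AZIN1 (chr8:103838339-103884640, minus strand) had 5′UTR reads spread over 79 of 205 codons rather than gathered at the start codon. Codon -77 held 12, 15 and 22 reads, and codons -55 and -56 held 23 reads each. The last 17 codons held 12, 7 and 11 reads, 7.87% of the 381 reads of the 5′UTR. Only upstream AUGs were searched for, and reading frames that start at other codons were not examined. The 4 upstream AUG reading frames of the matched transcript held 25, 10, 1 and 15 reads in order from the 5′ end, counted in the frame of the CDS. Only uORF 2, with 10 reads, is in that frame, and RPFs in the frames of the others are not in these counts. Reads also lay on 4 of 8 in-frame stop codons of that transcript, with 24 reads in all. The 5 GENCODE transcripts with this CDS have only the last 77 nt of the 5′UTR in common, and the listed 5′UTR was longer than that of the matched transcript, so upstream positions in AZIN1 are uncertain. Of the runs of 30 nt in its 5′UTR, 22.7% also occur in a transcript of ENSG00000289653. In the matched transcript these runs cover bases -269 to -111 before the CDS, where codons -77, -56 and -55 lie. The reads on these codons can therefore not be assigned to AZIN1 alone. The ratio moved least of the 4 genes under other settings, from 0.125 to 0.141.

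ODC1 (chr2:10580094-10588453, minus strand) had its 5′UTR reads close to the start codon. The 5 codons between the in-frame stop codon at -6 and the start codon held 119, 81 and 52 reads, 71.4% of the 353 reads of the 5′UTR. Their density was 1.09 ± 0.13 (SD, n = 3) times that of the CDS. Without 5 codons on each side of the start codon the ratio to the CDS was 0.0262 in place of 0.0811, and over the last 17 codons of the 5′UTR it was 0.342. The 48 listed codons farthest from the CDS held none of the 353 reads. The upstream AUG of the matched transcript, 161 nt before the CDS with 10 codons, lies in another frame, and 1 read was counted over its 10 codons. RPFs in the frame of that AUG are not in these counts. The 5 transcripts of ODC1 with this CDS have only 17 nt of 5′UTR before the start codon in common, and whether the listed transcript has this AUG is not known from the files.

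SMS and SRM, the enzymes with the highest translational efficiency, had almost no reads upstream in the frame of the CDS. SMS (chrX:21958827-22012955, plus strand) has an upstream AUG whose 30 codons run past the start codon in another frame. RPFs in the frame of that AUG are not in these counts. Of the 8 5′UTR reads of SMS, 6 lay on codon -8, the codon at which the upstream reading frame starts. The matched 5′UTR of SMS was 116 nt long and the listed one was longer, with 80 codons. SRM (chr1:11114646-11120077, minus strand) had 1 read over 27 listed codons against 7336 in the CDS. The ratios to the CDS were 0.00378 ± 0.00143 (SD, n = 3) for SMS and 0.00124 ± 0.00215 for SRM.

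Along the CDS, the first 75 codons held more reads than the last 75 codons in ODC1 and AMD1, and fewer in SRM and SMS. The ratio of reads in the first 75 to those in the last 75 codons was 3.18, 2.76 and 3.37 in ODC1 and 2.27, 2.31 and 2.27 in AMD1. AZIN1 had 1.63, 1.68 and 1.94. SRM had 0.416, 0.511 and 0.452, and SMS had 0.595, 0.477 and 0.533. SAT1, with 1.32, 1.08 and 0.647, lay on both sides of 1, and SMOX had 47 reads in the first and 13 in the last window. Against 9309 transcripts with a median of 0.980, ODC1 stood at the 90.2 percentile and SRM at the 19.9 percentile. Part of this came from the ends: without the first 15 and last 15 codons the combined ratio was 1.54 for ODC1, 1.05 for AMD1, 0.880 for AZIN1, 1.03 for SMS and 0.508 for SRM. The ratios of ODC1 and SRM therefore kept their direction in this setting, while those of AZIN1 and SMS changed sides. With the median over codons in place of the mean, each of these genes kept its direction. The ratio was then 2.45 for ODC1, 1.13 for AMD1, 3.78 for AZIN1, 0.463 for SMS and 0.468 for SRM. Over a wider stretch, the first 231 of 462 codons of ODC1 held 48.8% of its CDS reads. The ratio of its windows was thus not a shift over the whole CDS. The share was 60.7% for the first 167 codons of AMD1, 31.9% for the first 151 of SRM and 45.7% for the first 183 of SMS.

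**Figure D4:**
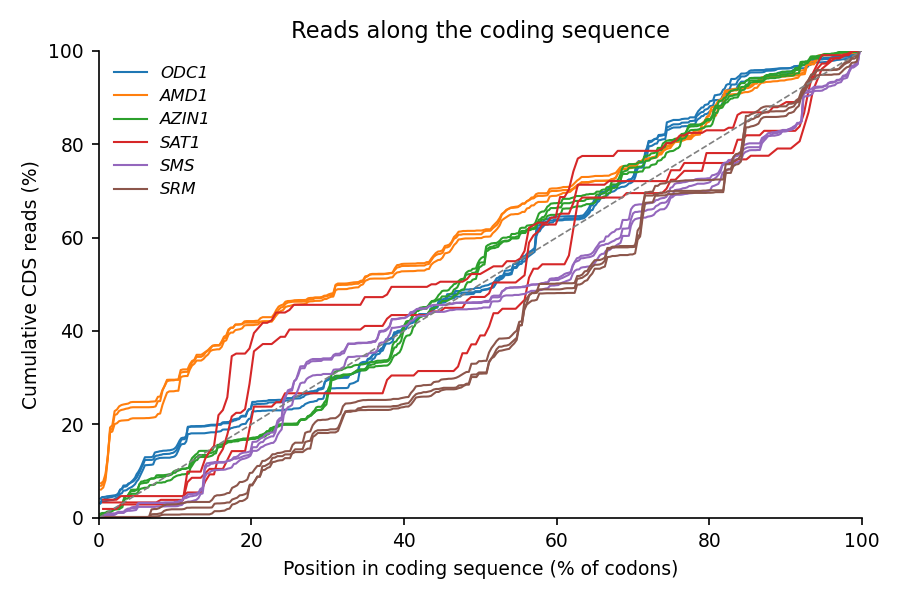
Cumulative share of CDS reads (%, vertical axis) against position in the CDS (% of its codons, horizontal axis) for 6 polyamine mRNAs, with a line for each of the 3 libraries and the dashed diagonal for an even spread. AMD1 reached 42.4% of its reads within the first 75 codons, and SRM 13.5%.

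The highest codons of ODC1, AMD1, SRM, SMS and AZIN1 held reads in all 3 libraries. In AMD1 the start codon held 427, 465 and 260 reads, 22.7 times the CDS mean, and codons 5 and 4 followed with 19.4 and 14.1 times. The start codon of ODC1 was 15.9 times its CDS mean, with 285, 291 and 148 reads, while that of SMS held 2, 1 and 2 reads and that of SRM held none of 7336. SMS and SRM instead had many reads on the last sense codon, with 115, 85 and 56 reads in SMS, 10.2 times the mean, and 69, 38 and 17 in SRM, 4.86 times the mean. These stood at the 98.6 and 95.4 percentile of transcripts. The highest codon of ODC1 was 265, with 306, 234 and 210 reads, followed by codon 1 and codon 344. In SRM the highest were 216, 249 and 257, in SMS 339, 51 and 89, in AZIN1 228, 137 and 135, in SAT1 97, 35 and 30, and in SMOX 1, 72 and 20, of which codons 72 and 20 had no read in 1 library each. Across codons of the CDS the libraries correlated with Pearson coefficients from 0.872 to 0.970 in ODC1, AMD1, SRM, SMS and AZIN1, from 0.519 to 0.716 in SAT1 and from 0.501 to 0.643 in SMOX. The codons share their mRNA and library preparation, and these coefficients are a description. The next sequences show the highest codon (in capitals) of ODC1, SRM and SMS, at chr2:10582241-10582270 (minus strand), chr1:11115940-11115969 (minus strand) and chrX:22010772-22010801 (plus strand).
ODC1 codon 265: aaatactttccgTCAgactctggagtgaga
SRM codon 216: ctgcacctggacCTCatcaaggagatgcgg
SMS codon 339: ctgtattgtcctGTGgaattttcaaaggag

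Beyond the stop codon, AMD1 was the polyamine mRNA with most reads. It held 8, 6 and 14 reads in the 3′UTR in libraries a, b and c, against 2, 1 and 0 in ODC1, 3, 0 and 0 in SMS and 4, 2 and 0 in AZIN1. These counts depend on depth and 3′UTR length. Per codon and relative to the CDS, the combined values were closer, with 0.000886 for AMD1, 0.000555 for SMS, 0.000514 for AZIN1 and 0.000456 for ODC1. They stood at the 69.2, 62.9, 61.8 and 60.1 percentile of transcripts. SRM had none of 7337 reads there, which allows a share of up to 0.0409%, SAT1 none of 488, which allows 0.615%, and SMOX none of 71. AMD1 is known for readthrough of its stop codon, and the next stop codon in frame comes after 127 codons, where only 2.81% of matched transcripts have an extension of 100 codons or more. These 127 codons are 17.9% of the listed 3′UTR and held 26 of its 28 reads, on 15 codons between codon 4 and codon 119. After the next in-frame stop codon 581 codons held 2 reads. Per codon the extension was at 0.00262, 0.00210 and 0.00972 times the CDS. Library c gave 14 of the 26 reads, and without it 12 of 14 reads lay in the extension. Of 230 transcripts with an extension of at least 100 codons, 69.1% had no occupancy in it, and AMD1 stood at the 81.7 percentile. In 66 of the 230 (28.7%) occupancy per codon was higher in the extension than after it. AMD1 thus shared this with most of the transcripts that had any occupancy there. Of the runs of 30 nt in the AMD1 extension, 33.8% also occur in ENSG00000279557, and its part in these reads was not tested. The stop codon of the CDS (chr6:111214808-111214834, plus strand) and the next one in frame (chr6:111215189-111215215, plus strand) are shown in capitals, since they bound this stretch.
AMD1 stop: cagcagagtTGAttaagaaaaatgaag
AMD1 second stop: tttcgtcctcatTAGgtgttggcctca

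**Figure D5:**
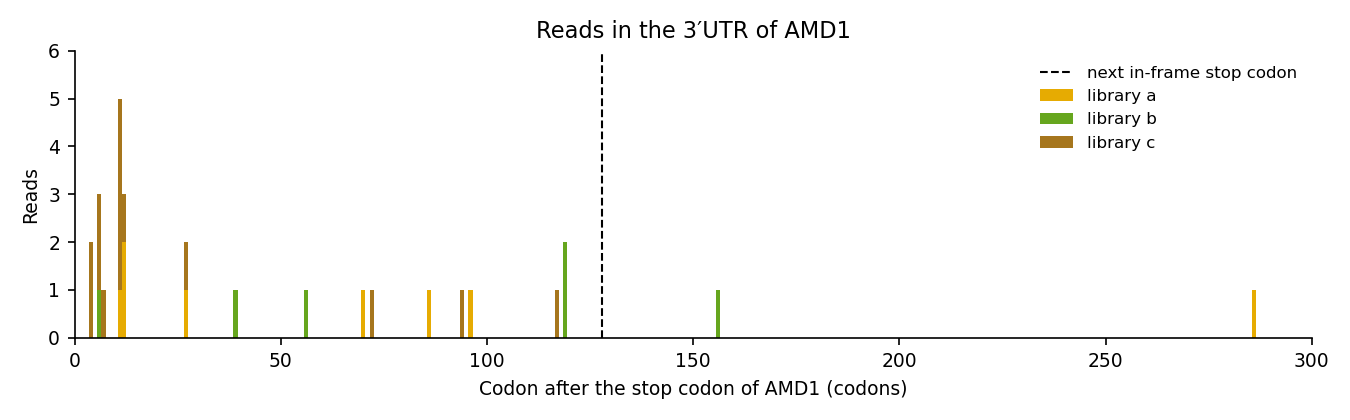
Number of in-frame reads (vertical axis) at each codon of the AMD1 3′UTR (horizontal axis, codons after the stop codon, up to the last codon with a read), coloured by library, with the next in-frame stop codon as a dashed line. The line has 26 reads before it and 2 after it.

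SMOX, the spermine oxidase, was listed with a transcript of 191 codons, a short form of the enzyme, and 70 of its 71 reads lay in the CDS. The start codon of SMOX held 5, 4 and 5 reads, 20.0% of its CDS reads. This is the only form of SMOX in the table, so the full-length enzyme was not analysed here.

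Other genes of polyamine metabolism were read from a list in 5 groups, of which 22 of 28 had a translational efficiency. By limma 13 were higher and 7 were lower than the median of all genes, against the same background of 44.7% and 44.6%. Requiring a difference over 2-fold left 7 higher and 4 lower, beside 23.3% and 18.2% of all genes. OAZ1 and OAZ2, the antizymes made by ribosomal frameshifting, had mean ratios of 0.113 ± 0.008 and 0.498 ± 0.064 (SD, n = 3), lower and higher than the median. Of the enzymes of ornithine and arginine supply, OAT was highest with 1.90 ± 0.07 and ASS1 lowest with 0.137 ± 0.007. Of those of methionine and S-adenosylmethionine supply and salvage, 6 of 8 were higher and 1 lower, from ADI1 with 11.3 ± 0.8 to MRI1 with 0.314 ± 0.030. Among transport and acetylation genes, SLC7A1 (an arginine transporter) had 2.49 ± 0.18 and SLC3A2 (the heavy chain of amino acid transporters) 0.150 ± 0.006. EIF5A, the protein that carries the spermidine-derived hypusine, had 1.23 ± 0.06, and DHPS, which takes part in making hypusine from spermidine, had 0.0864 ± 0.0103.

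For comparison, 10 genes known for translated uORFs outside this pathway all had an occupancy. Their 5′UTR to CDS ratios ran from 0.0528 in IFRD1 to 37.1 in SLC35A4, with a median of 1.79, against 0.0811 over the 7 polyamine genes with a value. The ratio of SAT1, the highest of the polyamine genes, lay within this range and below its median. Of the 6 with a translational efficiency, 2 were higher and 3 were lower than the median of all genes by limma, near the background of 44.7% and 44.6%, from EIF5 with 0.569 ± 0.022 (SD, n = 3) to ATF4 with 0.0506 ± 0.0048.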

How the data were processed

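RPF and total RNA libraries of HEK293 cells (3 each) were processed by the authors, who aligned RPFs to the hg19 transcriptome. The submitters' processing notes name cutadapt 1.16, Bowtie 1.1.2, TopHat2 2.1.1 and HTSeq 0.9.1 without their order. The deposited translational efficiency is a linear ratio per gene and replicate, and the sources used here do not give its formula. The deposited occupancy values are in-frame RPFs of 28 to 30 nt, placed with an offset of 13 nt, normalised for library size, divided by TPM and combined over replicates. Total depth per library is not in the tables used.

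Translational efficiency was tested with limma 3.58.1 (R 4.3.3) on log2(ratio + 0.01), each gene against the median of all genes (two-sided, Benjamini-Hochberg over 8121 genes), with no filter. Tested on simulated data with 200 of 8121 genes moved by 1 on the log2 scale, 84.5% were recovered, 14 unmoved genes were called and 0 had the wrong sign. A difference over 2-fold was tested with limma treat. For each transcript, 3 steps were searched for, each the worth of 1 read in a library. The steps had to turn all values up to 30 times the smallest step into whole reads, at a relative tolerance of 1e-09. This succeeded in 98.8% of 9570 transcripts. At a relative tolerance of 1e-13, every value of the genes described had 1 solution. Pairs of transcripts were compared over the 9345 transcripts whose reads could be read back. On 60 simulated transcripts 100.0% of values were recovered. Sequences and positions come from GENCODE 44 on GRCh37, of which 91.3% of transcripts matched, with Python 3.11.15.

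Libraries with the same number share a lysate, so the pairing is already inside each ratio. The genes and lists were chosen with earlier results of these data known. Named genes are the 8 polyamine genes, the highest and lowest of each list group, the 3 nearest genes to AMD1, ODC1 and AZIN1, and the 3 highest codons of each region.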

Additional observations from a re-analysis of the deposited data

How the results depend on the processing

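Adding 0.1 in place of 0.01, leaving out genes of mean ratio under 0.05, or fitting the replicate block left the number of polyamine genes called by limma at 6, and the number over 2-fold from the median at 1. The replicate block, which uses the numbers that pair RPF and total RNA libraries, changed no call (6 of 6 with and without it). Leaving out a replicate gave 4 to 6 calls, the calls of AMD1 and AZIN1 being the ones lost, and 19 to 20 calls on the pathway list. The number of pairs without overlap stayed at 15. No call on translational efficiency reversed its direction. The ratio of the first to the last 75 codons changed sides without the first 15 and last 15 codons in AZIN1 (0.880 in place of 1.74) and in SMS (1.03 in place of 0.534). With the median over codons neither changed sides (3.78 for AZIN1 and 0.463 for SMS). The number of genes with a 5′UTR to CDS ratio above the median of all transcripts was 5 of 7, and 4 to 5 under other windows. By definition a median has as many transcripts above as below it. SMOX is among the 5 through 1 read in 1 library. Because the steps could not be tied to replicate numbers, occupancy ratios could not be recomputed without a named replicate. Counts of reads in SAT1 and SMOX limit what can be said of single codons there, and isoforms of AZIN1 and ODC1 limit upstream positions.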
